A study of Homo sapiens with 2 samples.

Results

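High mobility group (HMG) proteins are small, abundant, non-histone proteins of chromatin that bend, bind or loosen DNA. Their mRNAs were followed here through 9 genes: HMGB1, HMGB2 and HMGB3, which carry HMG boxes and bend DNA; HMGN1, HMGN2, HMGN3, HMGN4 and HMGN5, which bind the nucleosome core; and HMGA1, which binds the minor groove of AT-rich DNA through AT hooks. Each gene was taken as the long-read locus with the largest same-strand exonic overlap with it in GENCODE 44 (hg38), and each gene had exactly 1 such locus. The 9 loci were among 12178 with a listed edit, and they held 215 of 213041 edited positions.

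The measurement was C-to-U RNA editing in HEK293T, an immortalized human embryonic kidney line, read on full-length PacBio cDNA. Cells were fixed in methanol. In the RBFOX2 library a rabbit antibody against RBFOX2, a splicing regulator that binds UGCAUG, held a nanobody fused to APOBEC1, a cytosine deaminase, next to the RNA bound by RBFOX2. The enzyme-only library had the fusion without the antibody, so that it measured what the enzyme edits unguided. There was 1 library of each kind, labelled replicate 2 and replicate 1, so every comparison is between 2 libraries and not between conditions, and no p-value is given. Intervals are exact Clopper-Pearson intervals at the 95% level. They describe counting error alone, as the cDNA reads had no molecular identifiers.

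The RBFOX2 library listed 121930 positions and the enzyme-only library 103684, of which 12573 were listed in both. The genes with a listed position had 2431345 and 2233600 reads in all. Positions listed in both libraries are called shared below, and the others unshared. The authors had removed edits common to all libraries of the study, so the shared positions leave those out. The unshared totals were 109357 and 91111, and their ratio of 1.20 was used to scale counts per gene. The edit fraction of a position is its converted reads over all reads of its gene. A position was listed only where this fraction was above 0.2%, so a deeply read gene needs many converted reads: at least 22 for HMGN2 with the RBFOX2 antibody and 18 without it, against 1 for HMGN4 and HMGN5 in either. All 215 member positions lay in exons of the long-read isoforms.

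APOBEC1 prefers a cytosine that follows A or U, and the HMG positions with the most converted reads lay in 3'UTRs. The HMGN1 and HMGN2 stretches below are shown because they hold the densest groups of edited positions, and the HMGN4 stretch because it aligns with that of HMGN2. They are read from hg38 as RNA, 5′ to 3′, with every position listed in either library in a capital C. HMGN1 is chr21:39342832-39342861, minus strand, beginning 251 nt after the stop codon. HMGN2 is chr1:26475169-26475198, plus strand, beginning 21 nt after the stop codon. HMGN4 is the aligned stretch of chr6:26545498-26545527, plus strand, beginning 19 nt after its stop codon.
HMGN1: CugaCuguCuCggguguCagcuuaaCauuC
HMGN2: CuguguaCuuCuggugaCuguaCaguuuga
HMGN4: cucuguaCuuauagugaCucuacuguuuga

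The 9 genes held 148 positions with the RBFOX2 antibody and 102 without it, 35 of them shared. The unshared positions numbered 113 and 67. HMGN4 had the most positions in each library, and HMGB1 the fewest. The number of positions did not follow the number of reads: HMGB1 had 4240 and 3226 reads and 1 and 2 positions, whereas HMGN4 had 276 and 231 reads and 35 and 33 positions.

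**Figure D1:**
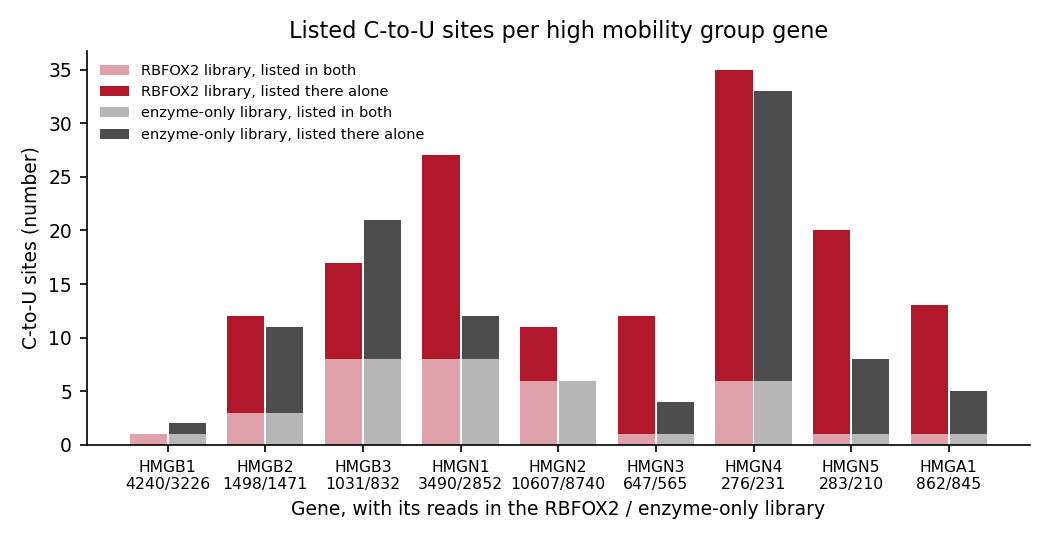
Number of listed C-to-U positions per gene in the RBFOX2 library (red) and the enzyme-only library (grey), split into positions listed in both libraries (pale) and in 1 library alone (dark); the reads of the gene in each library stand under its name. HMGN1 had 27 against 12 positions. HMGB3 was higher in the enzyme-only library, with 17 against 21, where its listing minimum was 2 converted reads against 3 in the RBFOX2 library.

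HMGN1, which binds nucleosomes and counters chromatin compaction, had the highest scaled ratio of unshared positions among the 7 members with such positions in both libraries. It had 3490 reads with the RBFOX2 antibody and 2852 without it. The unshared positions numbered 19 and 4, a scaled log2 ratio of 1.85 with an interval of 0.40 to 4.0. Intervals of position counts treat the positions of a gene as independent. Neighbouring positions can be converted on the same read, so these intervals may be too narrow. HMGN1 was the single member whose interval excluded 0 at this setting. The interval included 0 under 2 alternatives: 0.90 (interval -0.09 to 2.05) with shared positions kept and 1.25 (interval -0.20 to 3.4) with at least 2 converted reads. In the latter its counts stayed at 19 and 4, and only the library totals used for scaling changed.

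HMGN1 and HMGN5 were 2 of the 4 members with at least 20 unshared positions, and both had a scaled log2 ratio above 1. Over all 3604 genes with at least 20 unshared positions, 605 (16.8%) had a ratio above 1 and 525 (14.6%) a ratio below -1. HMGN5, a nucleosome binder with a long acidic tail, had 19 and 7 unshared positions on 283 and 210 reads, a log2 ratio of 1.12 with an interval of -0.14 to 2.67. HMGB3 had 9 and 13, a log2 ratio of -0.77 (interval -2.20 to 0.54), and HMGN4 had 29 and 27, a log2 ratio of -0.16 (interval -0.97 to 0.65). The median of these 4 ratios was 0.48, and the median over all 3604 genes was 0.08.

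The 5 remaining members had fewer than 20 unshared positions. HMGA1 had 12 and 4, a log2 ratio of 1.21 (interval -0.40 to 3.41). HMGN3, which exists in a long and a short protein isoform, had 11 and 3, a log2 ratio of 1.45 (interval -0.31 to 4.09). HMGB2 had 9 and 8, a log2 ratio of -0.10 (interval -1.64 to 1.48). HMGN2 had 5 with the RBFOX2 antibody and none without it, and HMGB1 none and 1, which gives no fold change. HMGA1 and the HMGN genes other than HMGN4 were thus on the RBFOX2 side, and HMGN4 and the 3 HMGB genes on the enzyme-only side, but 8 of the 9 intervals included 0. Scaled by the reads of the gene instead, HMGB2 moved to 0.13. HMGB3 changed side with 1 read minimum for both libraries (1.09), and HMGN4 with at least 2 converted reads (1.46). With at least 2 converted reads HMGB3 stood at -1.37, and its interval of -2.80 to -0.05 excluded 0 on the enzyme-only side. Its counts were unchanged there, and only the library totals used for scaling differed.

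**Figure D2:**
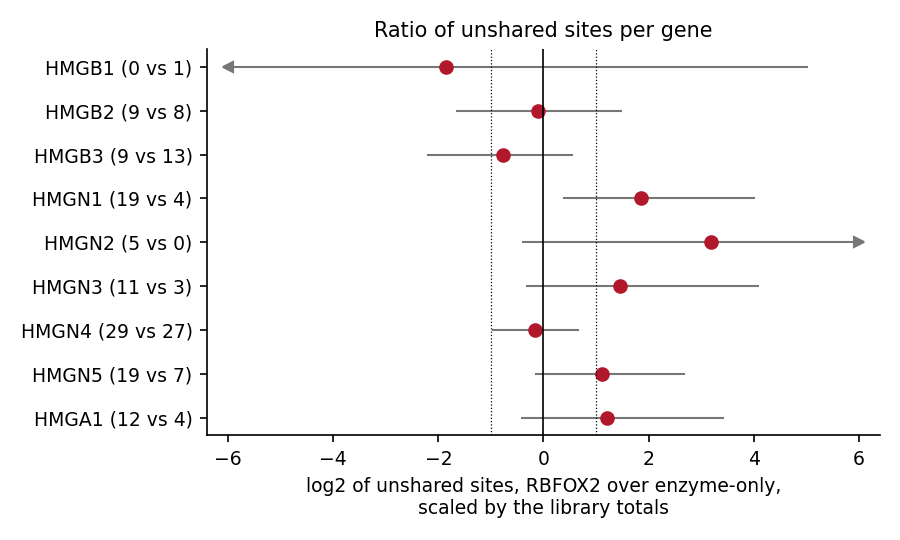
Scaled log2 ratio of unshared positions, RBFOX2 over enzyme-only, for each gene (points), with exact 95% intervals (lines; an arrow marks an interval with no bound) and the 2 counts beside the gene name; dotted lines mark -1 and 1. The interval of HMGN1 lies above 0 at this setting, though not with shared positions kept or with at least 2 converted reads required, and the others include 0; the points of HMGN2 (5 against 0) and HMGB1 (0 against 1) depend on the pseudocount of 0.5.

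Depth bears on these counts. Deep genes, those read 500 times or more in each library, leaned to the RBFOX2 library as a whole: the 787 nuclear ones had 7743 and 4585 unshared positions, a ratio of 1.69. The 7 members of this depth (all but HMGN4 and HMGN5) had 65 and 33, a ratio of 1.97. Among the deep genes with at least 10 unshared positions, 160 of 479 (33.4%) had a scaled log2 ratio above 1, as did 3 of 5 members (HMGN1, HMGN3 and HMGA1). Their median log2 ratio was 1.21 for the members and 0.47 for the 479 genes. The interval of HMGN1, 0.40 to 4.0, includes this 0.47, so it does not set HMGN1 apart from genes of its depth.

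The minimum of converted reads also differed between the libraries. Under 1 minimum per gene for both libraries, set by the deeper one, the 7 members had 65 and 20 unshared positions (ratio 3.25), and the 787 deep genes had a ratio of 2.03. HMGB3 moved most. Its 1031 reads in the RBFOX2 library required 3 converted reads and its 832 reads in the enzyme-only library 2, and with 3 required in both its counts went from 9 and 13 to 9 and 3, a log2 ratio of 1.09. All but 3 of its 13 unshared enzyme-only positions thus rested on 2 converted reads. HMGN1 went from 19 and 4 to 19 and 2.

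In HMGN1, 28 of 31 positions lay in the 3'UTR of 797 nt and 3 in the coding sequence. A run of 33 nt, 251 to 283 nt after the stop codon, held 8 RBFOX2 positions among its 10 cytosines. Its highest position, at 39342851, had 36 converted reads with the RBFOX2 antibody and 6 without it, which is 1.03% against 0.210%. The position 6 nt upstream of it in the RNA, at 39342857, had 34 and 13 (0.974% against 0.456%). A position nearer the stop codon, at 39343064, had 31 and 6 (0.888% against 0.210%).

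The shared positions of HMGN1 allow a comparison in which both libraries were measured. The fraction was higher in the RBFOX2 library at 7 of 8. The ratio of fractions was 4.90 at 39342851 (interval 2.05 to 14.2), 4.22 at 39343064 (1.74 to 12.4), 2.80 at 39342836 (1.17 to 7.70) and 2.14 at 39342857 (1.10 to 4.41). At the remaining 4 the interval included 1, and at 39342796 the fractions were 0.315% and 0.316%. Summed over the 8 positions, HMGN1 had 49.6 conversions per 1000 reads with the RBFOX2 antibody and 21.4 without it, a ratio of 2.32 (interval 1.72 to 3.16). Among 110 deep genes with at least 5 shared positions, whose median ratio was 1.25, this ratio ranked 3. Conversions at neighbouring positions can sit on the same read, so the interval of a sum is too narrow.

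**Figure D3:**
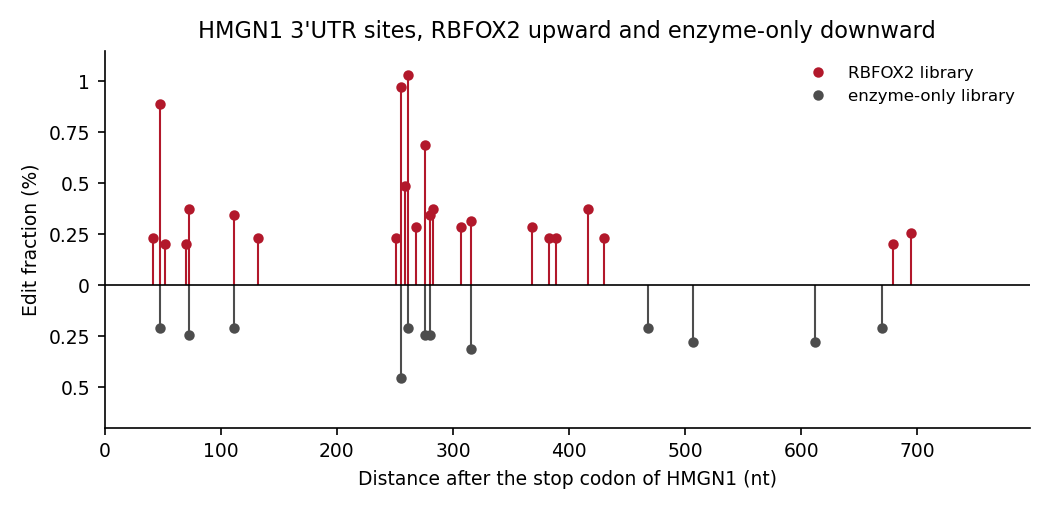
Edit fraction of each listed position (percent of the reads of the gene) against its distance after the HMGN1 stop codon in nt, RBFOX2 library upward (red) and enzyme-only library downward (grey). The 3 highest positions, between 0.888% and 1.03%, lie 48, 255 and 261 nt after the stop codon and all 3 are listed in both libraries.

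The unshared RBFOX2 positions of HMGN1 were weaker. The highest, at 39342853 in the same run, had 17 converted reads (0.487%), and a position left off the enzyme-only list has at most 5 (0.175%). The fraction there was at least 2.78-fold higher, but the lower end of the counting interval was 0.984. The 4 unshared enzyme-only positions, 468 to 670 nt after the stop codon, had 6 to 8 converted reads, against at most 6 in the RBFOX2 library.

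HMGN2, which binds nucleosomes like HMGN1, ranked 4 in each library by reads among the 8203 genes listed in both, with 10607 and 8740 reads. All of its 11 RBFOX2 and 6 enzyme-only positions lay in the 3'UTR. The 6 enzyme-only positions were all shared, and they were all 6 cytosines of a run of 35 nt, 21 to 55 nt after the stop codon. The highest position, at 26475186, had 83 converted reads (0.783%) and 54 (0.618%), the most of any member position in either library.

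The other shared HMGN2 positions had lower fractions. The position at 26475203 had 44 and 19 converted reads (0.415% and 0.217%), a ratio of 1.91 (interval 1.09 to 3.46), and the position at 26475176 had 38 and 28 (0.358% and 0.320%). All 6 fractions were higher in the RBFOX2 library, though only the interval at 26475203 excluded 1. Summed over the 6, the ratio was 1.34 (interval 1.10 to 1.64), from 24.9 and 18.5 conversions per 1000 reads. It ranked 43 of the 110 deep genes. The 5 unshared RBFOX2 positions, 98 to 658 nt after the stop codon, had 22 to 26 converted reads, against at most 17 in the enzyme-only library. The ratio at each is then at least 1.07 to 1.26, with lower interval ends of 0.541 to 0.658.

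HMGN4 is a retrogene of HMGN2, which lets the same edited stretch be compared in a second gene. The coding sequences were identical at 86.4% of 273 aligned bases and the 3'UTRs at 78.6% of 1213. Of the 11 HMGN2 positions, 10 had an aligned base in HMGN4, 9 of these bases were cytosines and 4 were listed HMGN4 positions. Of these, 3 lay in or just after the stretch printed above, at 28, 38 and 55 nt in HMGN2 and 26, 36 and 53 nt in HMGN4, and each was followed by U and preceded by A in both genes. The fourth lay at 658 and 633 nt.
HMGN2 at 26475203: guuugaaauaCuauuuuuuau
HMGN4 at 26545532: guuugaaauaCuauuuuuuua

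Each of those 3 HMGN4 positions rested on 1 converted read, at 26545505 in the enzyme-only library and at 26545515 and 26545532 in the RBFOX2 library. A read of HMGN2 placed on HMGN4, or the reverse, would be counted under the wrong gene, and how often this happened was not tested.

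**Figure D4:**
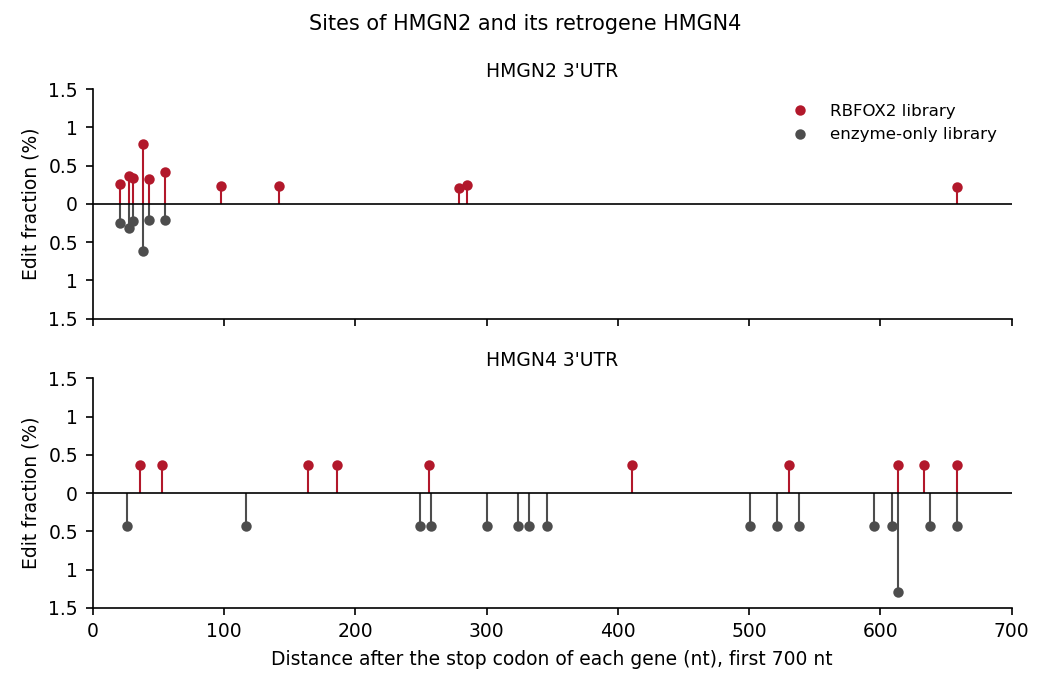
Edit fraction (percent of the reads of the gene) of the listed positions in the first 700 nt of the 3'UTR of HMGN2 (top) and HMGN4 (bottom), RBFOX2 library upward (red) and enzyme-only library downward (grey). The 6 HMGN2 positions within 55 nt of the stop codon reach 0.783%, while most HMGN4 positions stand at the value of 1 converted read, 0.362% or 0.433%.

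HMGN4 positions were spread over the gene and rested on few reads. Only 3 of 35 RBFOX2 positions and 1 of 33 enzyme-only positions had at least 2 converted reads. The highest in the RBFOX2 library, at 26546269, had 3 (1.09%), and the highest in the enzyme-only library, at 26546092, also had 3 (1.30%) against 1 in the RBFOX2 library. All 6 shared intervals included 1. A single read exceeds the listing minimum in this gene, so its high number of positions is not comparable with that of HMGN2.

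Every HMGN5 position rested on 1 converted read. They fell in the 3'UTR (11 and 6), the coding sequence (4 and 1), the 5'UTR (2 and 1) and, in the RBFOX2 library alone, annotated introns that long-read isoforms contain as exon (3). HMGN3 had positions with up to 4 converted reads in the RBFOX2 library, at 79201515 in the 3'UTR and at 79214982 in codon 19 (both 0.618%). Neither was listed in the enzyme-only library, whose highest HMGN3 position, at 79201590, had 3 (0.531%). The only shared HMGN3 position, at 79201285, had 3 and 2. The HMGN3 and HMGN5 loci had 48.0% and 37.3% of their exon bases inside the exons of the gene, so part of each locus is not annotated as exonic.

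HMGA1 had up to 3 converted reads at a position, at 34245034, 34245141 and 34245797 in the RBFOX2 library, and 2 at each enzyme-only position. Its one shared position, at 34245098, had 2 in each library, on 862 and 845 reads. HMGA1 had the lowest share of exonic cytosines after A or U, 30.8% against 41.0% to 55.4% in the other 8 genes. Of its 13 RBFOX2 positions 7 followed A or U, whereas every RBFOX2 position of HMGB1, HMGB2, HMGB3, HMGN1 and HMGN2 did.

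In HMGB1 and HMGB2 the positions with the most converted reads were shared. HMGB2, which is most abundant in dividing cells, had shared positions at 173331779 (11 and 10 converted reads), 173331796 (6 and 10) and 173331925 (8 and 5), on 1498 and 1471 reads. None of the 3 ratios, 1.08, 0.589 and 1.57, had an interval that excluded 1, and their summed ratio was 0.982 (interval 0.541 to 1.78). HMGB2 had 8 coding positions, 5 with the RBFOX2 antibody and 3 without it, the most of any member.

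HMGB1, the archetypal HMG-box protein and also an extracellular alarm signal, had 2 positions among 1117 exonic cytosines. At its depth a position needed at least 9 converted reads with the RBFOX2 antibody and 7 without it to be listed. The shared position at 30461161, 196 nt after the stop codon, had 16 and 9 converted reads (0.377% and 0.279%), a ratio of 1.35 (interval 0.563 to 3.47). The other, in codon 129, had 7 converted reads in the enzyme-only library. The shared HMGB1 position and the highest HMGB2 position are shown because the same 6 bases, caauag, begin at both. How often 6 bases match between listed positions was not tested. The 3'UTRs of the 2 genes aligned at only 1 base, so the 2 positions are not aligned with each other. Both are on the minus strand.
HMGB1 at 30461161: gugguauuuuCaauagccacu
HMGB2 at 173331779: gaauuaguauCaauaguaaau

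HMGB3, an HMG-box protein of blood and embryonic progenitors, had 8 shared positions. All 8 fractions were higher in the RBFOX2 library, but 4 of the 8 stood at the minimum of both libraries, 3 of 1031 and 2 of 832 reads. At every shared position but 150988299, with 5 and 3 converted reads, the enzyme-only count was its minimum of 2 (0.240%). The RBFOX2 minimum (0.291%) lies above that, so the order of the fractions there is fixed by the minimums. The highest shared position was at 150987945, 31 nt after the stop codon, with 7 and 2 converted reads (0.679% and 0.240%, ratio 2.82, interval 0.538 to 27.9). The highest enzyme-only position, at 150987920, 6 nt after the stop codon, had 5 converted reads and was not listed in the RBFOX2 library. The summed ratio of HMGB3 was 1.52 (interval 0.819 to 2.92).

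Over the 7 deep members, the fraction was higher in the RBFOX2 library at 25 of 28 shared positions, against 987 of 1761 (56.0%) over all deep genes, and 5 of the 28 stood at the minimum of both libraries. The median ratio was 1.38 in the members and 1.09 in the deep genes. At 5 positions, 4 of HMGN1 and 1 of HMGN2, the interval lay above 1, and at none of the 28 did it lie below 1. The 25 positions included 7 of HMGN1, 6 of HMGN2 and 8 of HMGB3, and positions of 1 gene share their reads. The order was fixed by the listing minimums at all HMGB3 positions but 150988299. How many positions of the other deep genes were fixed in this way is not given here. The 25 of 28 and the median ratio are therefore not read as a trait of these genes.

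**Figure D5:**
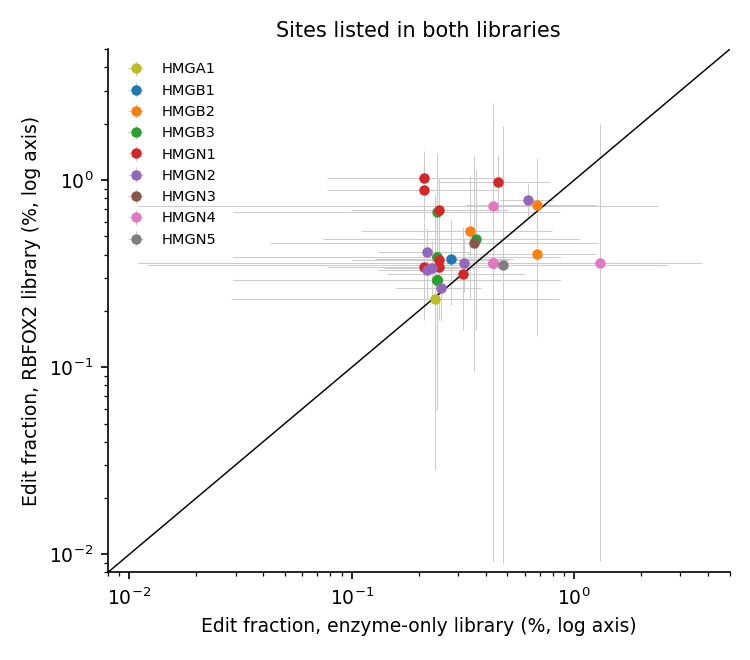
Edit fraction in the RBFOX2 library against that in the enzyme-only library for the 35 shared positions, both in percent on log axes, coloured by gene, with exact 95% intervals; the diagonal marks equal fractions. The 2 HMGN1 positions with ratios of 4.90 and 4.22 stand highest above the diagonal, and the widest intervals belong to HMGN4 and HMGN5.

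Few edited positions of the 9 genes lay near the RBFOX2 motif. The exons of the 9 loci held 13 copies of UGCAUG in 7 genes (sense strand only), 5 of them in HMGN5 and none in HMGB2 or HMGN4. Only 2 copies, in HMGB3 and HMGN2, lay in the 3'UTR of the canonical transcript, and the other 11 were outside its exons. Of the 7345 exonic cytosines of the loci, 3.01% lay within 50 nt of a copy.

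One of 113 unshared RBFOX2 positions (0.885%, interval 0.0224% to 4.83%) was within 50 nt of UGCAUG. From the exonic cytosines of each gene 3.21 would fall there. None of 67 enzyme-only positions did, which allows a share of up to 4.48% by the limit of 3 counts and 5.36% by the upper end of the exact interval. Over all genes the shares were 3.96% and 2.32%. Over all deep genes they were 5.79% and 1.77%. The interval of the RBFOX2 share includes the share over all genes but not the 5.79% over all deep genes. The 113 positions include those of HMGN4 and HMGN5, which are not deep, and the single position near a copy was in HMGN5. Within 200 nt the RBFOX2 count was 4 of 113 (3.54%), and for the shorter GCAUG within 50 nt the counts were 3 of 113 (2.65%) and 2 of 67 (2.99%). The position was at 81120199 in HMGN5, 1 converted read in an annotated intron, 6 nt from a copy at chrX:81120205-81120210 and also within 50 nt of a copy at chrX:81120173-81120178. The following windows, minus strand, show these copies in capitals.
HMGN5 first copy: guacaauUGCAUGgcaaaca
HMGN5 second copy: gcgaaauUGCAUGaagcucc

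The HMGN1 run had no copy within 200 nt. The single copy in HMGN1 was at chr21:39347731-39347736, outside the exons of its canonical transcript. The single copy in HMGN2, at chr1:26476232-26476237, lay beyond the last listed position of that gene, at 26475806.

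The 3'UTR held 77 of 113 unshared RBFOX2 positions (68.1%, interval 58.7% to 76.6%) and 53 of 67 unshared enzyme-only positions (79.1%, interval 67.4% to 88.1%). Over all genes, 42.0% and 35.9% of unshared exonic positions lay there. HMG transcripts have short coding sequences, and of the 4007 cytosines of the 9 canonical transcripts 69.2% were in the 3'UTR. HMGN1 stood above its own composition, with 90.3% of positions and 48.7% of cytosines in the 3'UTR. HMGN3 had 80.0% and 32.2%, and HMGB2 60.0% and 34.6%. HMGN4 had 71.0% and 65.8%, and HMGN2 100% and 68.9%. HMGA1 had 88.2% and 73.1%, HMGB3 86.7% and 82.6%, and HMGN5 59.3% and 52.7%. Only HMGB1 was below its composition, with 1 of 2 positions and 84.8% of cytosines there. HMGB1 held 933 of the 4007 cytosines, so it weighs heavily in the 69.2%. These compositions are of canonical transcripts and not of the sequenced isoforms. The longest HMGB1 isoform had 3381 nt, against a canonical 3'UTR of 4653 nt, and some of its counted cytosines lay outside every isoform. In HMGB3 only 4 of 28 isoforms contained the position 2651 nt after the stop codon.

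Of the unshared positions, 96 of 113 (85.0%, interval 77.0% to 91.0%) in the RBFOX2 library and 48 of 67 (71.6%, interval 59.3% to 82.0%) in the enzyme-only library followed A or U. This held for 46.0% of exonic cytosines of the same genes. Over all genes it held for 71.7% and 63.8%. Among the 7 deep members the shares were 87.7% and 78.8%, close to those of all deep genes, 88.1% and 77.4%. The trinucleotide ACU, with the edited C in the middle, made up 26.5% of unshared RBFOX2 and 14.9% of unshared enzyme-only member positions, against 6.71% of exonic cytosines. Over all genes it made up 14.8% and 12.04% of unshared positions, and over all deep genes 22.1% and 17.5%. This trinucleotide was chosen after the positions had been seen.

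At least 2 converted reads were behind 67 of 113 (59.3%) and 33 of 67 (49.3%) unshared member positions, against 14.7% and 9.72% over all genes. The listing minimum sets this: each of the 65 and 33 positions of the deep members had at least 2, as had each position of all deep genes. The highest fraction among all member positions was 1.30%.

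Coding positions numbered 18 with the RBFOX2 antibody and 10 without it, and none was shared. Read on the canonical transcripts as C-to-U changes, 12 and 4 would change an amino acid and 6 and 5 would be synonymous. A stop codon would result from 1, codon 22 of HMGN4 (CAG to UAG), with 1 converted read in the enzyme-only library. HMGN1 had 3 coding positions, all in the RBFOX2 library and all changing an amino acid, in codons 70, 83 and 99, with 8, 9 and 7 converted reads.

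Edits were counted over whole genes, so isoforms differ only by which positions their exons contain. HMGN1 had 41 isoforms. In 37 of them the share of cytosines that were edited positions was higher with the antibody, the median over all 41 being 9.57% against 4.26%, and the other 4 contained no position. HMGB1 had 43 isoforms, and 15 lacked its only RBFOX2 position. All 28 HMGB3 isoforms contained more enzyme-only than RBFOX2 positions, but the enzyme-only minimum of this gene was 2 converted reads against 3. With 3 required in both libraries its unshared counts were 9 with the RBFOX2 antibody and 3 without it. In HMGB3, 14 of 28 isoforms reached the shared position 761 nt after the stop codon, and 4 reached the position at 2651 nt. Isoforms of 1 gene share positions and are not independent.

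Among 40 other genes of HMG-domain proteins, 26 had a listed position and 7 had at least 20 unshared positions. The median of these 7 scaled log2 ratios was 0.55, with 2 above 1 and 3 below -1. TFAM, which packages mitochondrial DNA, was highest with 63 and 14 unshared positions, a log2 ratio of 1.87 (interval 1.06 to 2.86). SOX12 had 16 and 5 (1.32), KMT2C 13 and 7 at its larger locus by positions (0.58) and UBTF 55 and 31 (0.55). HMGXB4 had 8 and 14 (-1.03), SMARCE1 29 and 51 (-1.07, interval -1.79 to -0.39) and TCF7L2 16 and 31 (-1.20, interval -2.19 to -0.30). HMG-domain genes thus fell on both sides of 0, as the 9 HMG genes did.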

How the data were processed

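The authors aligned PacBio reads of both libraries to hg38 (build per the labels), called C-to-U edits, and removed known variants and edits common to all their libraries; this filtering was not repeated. The deposited edit lists give converted reads and gene reads as counts, the edit fraction as a fraction of the reads of the gene, and a confidence score between 0 and 1. The deposited isoform table gives coordinates without read counts per isoform. The aligner was pbmm2, per the study's methods, and edits were called with the authors' own scripts. The labels name the cell line HEK293XT and the titles HEK293T. Other replicates described with the study were not analysed here.

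Isoform loci were assigned to GENCODE 44 genes by the largest same-strand exonic overlap (bedtools 2.31.1). Position class was taken in the order coding sequence, 3'UTR, 5'UTR, non-coding exon, intron. Distances to the stop codon and codon changes were read on the Ensembl canonical transcript. HMGN2 and HMGN4, and HMGB1 and HMGB2, were aligned globally with Biopython 1.88 (match 2, mismatch -3, gap opening -6, gap extension -1). The log2 ratio used a pseudocount of 0.5. Intervals were computed with SciPy 1.17.1 and tested on simulated data. Genes with 500 or more reads in each library were added as a background after the data were seen. The median gene had 96.0 reads with the RBFOX2 antibody and 87.0 without it.

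All 9 genes were to be named, with, per gene, the 3 positions with most converted reads in the RBFOX2 library, the 2 with most in the enzyme-only library, positions within 50 nt of UGCAUG, and shared positions, the last as ranges where many. The members and lists were chosen with earlier results of these data known. Processed pseudogenes resemble several members, and their share of the reads was not tested. One gene of the list of other HMG-domain proteins is not reported here.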

Additional observations from a re-analysis of the deposited data

How the results depend on the processing

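No paired analysis was possible because each group has a single library, labelled replicate 2 and replicate 1. With at least 2 converted reads required, unshared member positions fell from 113 to 67 with the RBFOX2 antibody and from 67 to 33 without it, and the share within 50 nt of UGCAUG in the RBFOX2 library went to 0 of 67. With shared positions kept, the enzyme-only count was 102. No member position reached a confidence score of 0.5 (0 positions left in each library). The share over all listed positions is not given here, so this is not read as a trait of these genes. In the 7 members with at least 500 reads in both libraries, an alternative chosen after seeing the data, the RBFOX2 share in the 3'UTR was 76.9%, and 100% of positions in each library had at least 2 converted reads, which the listing minimum sets. The number of members with a log2 ratio above 0 was 5 as reported and 5 or 6 under the alternatives. The interval of HMGN1 included 0 with shared positions kept (0.90) and with at least 2 converted reads (1.25), the latter at unchanged counts of the gene. Of the other single genes, HMGB3 went to 1.09 under 1 common read minimum, and HMGN4 to 1.46 with at least 2 converted reads, from 2 positions. With at least 2 converted reads HMGB3 had -1.37 at unchanged counts, with an interval of -2.80 to -0.05 that excluded 0. HMGN5 had no position left with at least 2 converted reads and HMGB1 none under the common minimum, so neither has a value there. The remaining 38 values for the 9 genes together and 41 for single genes stayed within their counting interval or within 1.5 times the count. Depth limits HMGN4 and HMGN5 most, since 1 read there is 0.353% to 0.476% of the gene.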
